A study of Mus musculus with 10 samples.

Results

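The 9 genes described here, of 15075 in the table of expression values, encode the mitochondrial branch of apoptosis and its p53 arm: the survival genes Bcl2 and Bcl2l1, the pore-forming gene Bax, the BH3-only genes Bcl2l11, Bbc3 and Pmaip1, the death receptor gene Tnfrsf10b, the transcription factor gene Trp53 and its cell cycle target Cdkn1a. They were chosen by gene symbol, as apoptosis genes downstream of CHOP (the stress transcription factor encoded by Ddit3) and of p53. The rule used no values, but it was written with earlier results of these data known. All 9 were in the table. No caspase is among the 9, and the caspases were described from a separate list of the pathway. The samples were interscapular brown fat (iBAT) of C57BL/6 mice aged 20 weeks and housed at room temperature, with 1 RNA-seq library per mouse from 5 Control and 5 AdCKO mice. All 10 mice were homozygous for a Crls1 allele with loxP sites around exon 4, and the labels call the Control mice, which had no Cre, wild-type. AdCKO mice also carried Adipoq-Cre, which deletes the exon in adipocytes, so that other cells of the tissue kept an intact gene. Crls1 encodes cardiolipin synthase, which makes the signature phospholipid of mitochondria.

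In the mitochondrial route to cell death, BAX or BAK opens pores in the outer mitochondrial membrane, cytochrome c escapes, and APAF1 then activates caspases. BCL2, BCL-XL (the product of Bcl2l1) and MCL1 hold the pore formers back, and BH3-only proteins such as BIM (Bcl2l11), PUMA (Bbc3) and NOXA (Pmaip1) release that restraint. p53 is a stress-activated transcription factor, controlled largely at the protein level, whose targets include Bax, Bbc3, Pmaip1 and the cell cycle inhibitor gene Cdkn1a (p21), whereas CHOP has been tied to lower Bcl2 and to higher Bcl2l11 and Tnfrsf10b.

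Because p53 binds DNA at pairs of a 10-base half-site, the sequence before the start of each gene was read from the mouse genome mm9. In windows from 250 bases before to 50 bases after the start of the counted transcript, 4 of the 9 genes (Bax, Trp53, Cdkn1a and Pmaip1) held a perfect match to the p53 half-site, compared with 6.65% of the windows of all 15075 genes. The 9 were chosen in part as genes downstream of p53, so the count is not independent of that choice. Both strands are covered, since the half-site reads the same on each. The windows around the half-sites are shown for the 3 genes whose transcripts rose and had the highest levels, 5′ to 3′ along each gene's own strand, with half-sites in capitals. All 3 lie upstream of the gene and overlap no annotated exon. They are chr17:29227826-29227917 (plus strand) for Cdkn1a, chr7:52722435-52722494 (minus strand) for Bax and chr11:69393761-69393820 (plus strand) for Trp53.
Cdkn1a: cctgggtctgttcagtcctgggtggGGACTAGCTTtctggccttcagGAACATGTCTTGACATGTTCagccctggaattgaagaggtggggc
Bax: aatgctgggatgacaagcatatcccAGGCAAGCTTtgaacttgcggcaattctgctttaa
Trp53: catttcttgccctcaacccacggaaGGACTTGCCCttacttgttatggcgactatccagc
The longer run of capitals in Cdkn1a is a pair of adjoining half-sites that matches 19 of 20 bases of the full p53 element and begins 58 bases before the start of the counted transcript. Between 3000 bases before and 1000 bases after the start, Cdkn1a alone among the 9 genes had such an element, which 1.21% of all genes had. In the shorter windows, none of the 9 genes held TGATGNAA, an element bound by CHOP with its partners, which 2.35% of all windows held on one or the other strand. A match describes the letters in the window and is not evidence of binding, and a window without one says nothing about the factor.

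The values are normalized reads per kb: exon reads normalized between libraries by the authors and divided by the counted exon length, so that levels of different genes can be compared. None of the values was 0, and low values were moderated by a step that the sources used here do not name. The median SD of log2(value), with no constant added, was 0.095 among the genes with the lowest values. It was 0.16 among those in the middle of the range. The SDs, SEs and fold changes of low genes such as Bcl2, Bcl2l11 and Pmaip1 are therefore those of moderated values. Sequencing depth before normalization is unknown, and the precision given is the spread between mice. Values were compared as log2(value + 1) with limma, a linear model with moderated variances and a two-sided test. The fit covered the 11244 genes whose mean reached 10 in at least 1 group, p was adjusted over all of them by Benjamini-Hochberg, and a call required an adjusted p below 0.01. Fold changes on this scale understate the change of low genes. Crls1 lay between 813 and 1291 normalized reads per kb in Control and between 193 and 249 in AdCKO. The summed level of 10 brown adipocyte markers was 216614 to 247518 in Control and 134567 to 160368 in AdCKO. The summed level of 10 macrophage markers was 455 to 1259 in Control and 5921 to 7934 in AdCKO, and all 10 were called higher. Of these, 2 reached the required mean only in AdCKO, and 9 were called higher when no gene was left out for a low mean. Of 7 fibroblast and progenitor markers 6 were called higher (1030 to 1340 against 4050 to 6015). Summed markers of skeletal muscle lay between 115 and 149 in Control, at 160 and 145 in AdCKO 3 and 5, and at 7009, 27592 and 10477 in AdCKO 1, 2 and 4. T and B cell markers reached 315 in AdCKO 1 and at most 99.6 in any other library. In bulk tissue, fewer cells of a type and less RNA per cell cannot be told apart, and the part of these cell types in the results that follow was not tested.

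**Figure D1:**
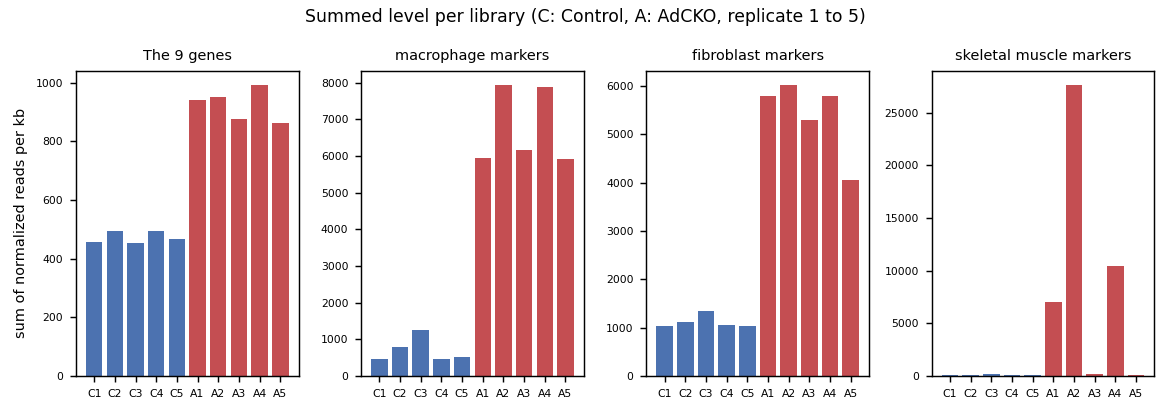
Summed level in normalized reads per kb (y axis) of the 9 genes and of markers of macrophages, fibroblasts and skeletal muscle in each library (x axis: C1 to C5 are Control and A1 to A5 are AdCKO). Macrophage and fibroblast markers stand higher in all 5 AdCKO libraries, and muscle markers in AdCKO 1, 2 and 4.

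Transcripts of 6 of the 9 genes were higher in AdCKO iBAT: Cdkn1a, Trp53, Bax, Pmaip1, Bcl2 and Bcl2l11. For each of these 6 the lowest AdCKO library was above the highest Control library, as was the case for 24.5% of all genes tested. For none of the 9 did all AdCKO libraries lie below Control, which 26.4% of all genes tested did. Both shares are over the 11244 genes tested, which do not include Pmaip1. By limma 0 of the 8 tested were called lower (28.0% of all genes tested were), and at an unadjusted p under 0.05 there was 1, Bcl2l1. The called count was 5 of the 8 genes that passed the filter on low values, beside 25.6% of all genes tested, and 2 of the 5, Bcl2 and Bcl2l11, passed it only through AdCKO. Without the filter it was 6 of 9, beside 24.7% of 15075 genes. Against AdCKO 3 and 5 alone, the AdCKO libraries with little muscle marker RNA, 3 genes were called (Cdkn1a, Trp53 and Bax), beside 18.8% of all genes tested in that comparison. Bcl2 was not tested there, and Bcl2l11 did not pass.

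**Figure D2:**
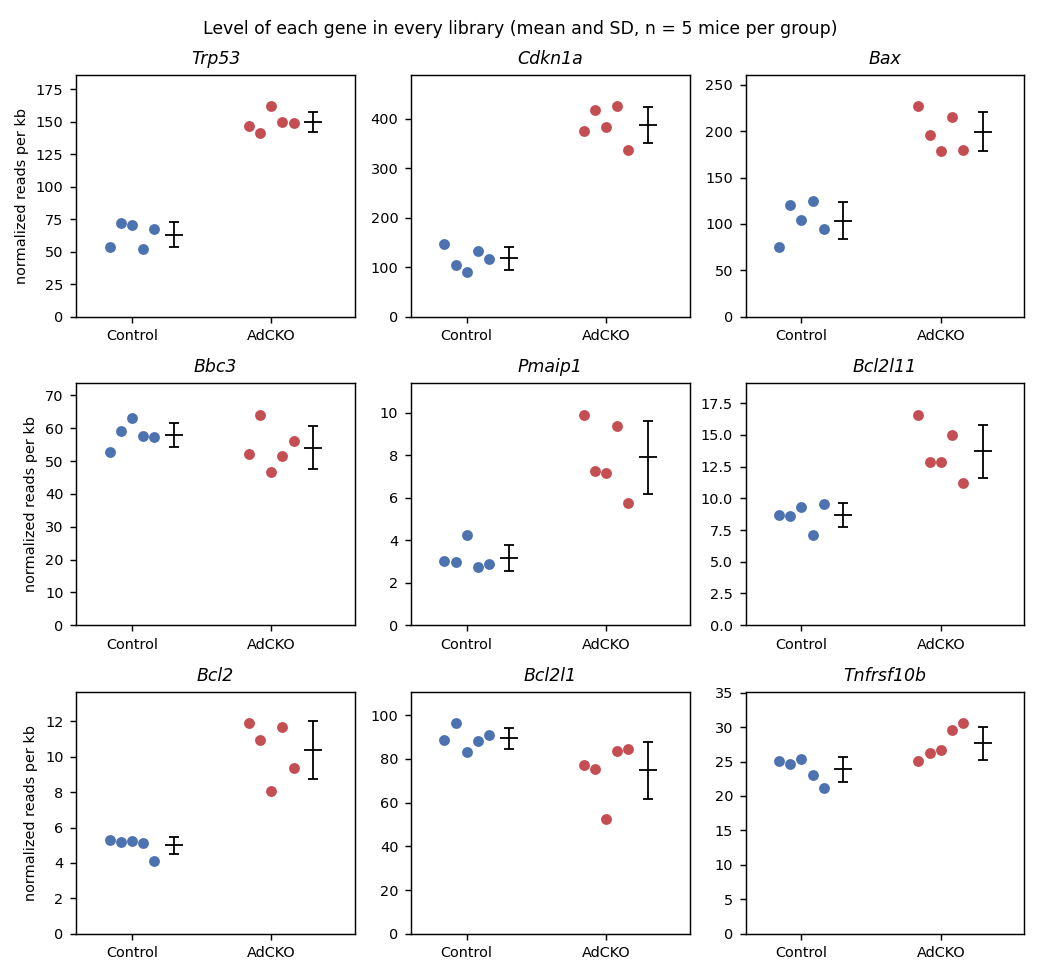
Level of each of the 9 genes in normalized reads per kb (y axis, from 0) in every library. Points are mice, replicates 1 to 5 from left to right, and bars give the mean and SD (n = 5). The groups are apart for Trp53, Cdkn1a, Bax, Pmaip1, Bcl2l11 and Bcl2 and overlap for Bbc3, Bcl2l1 and Tnfrsf10b.

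Trp53 encodes p53 itself. Its value was 53.7, 71.8, 70.4, 52.0 and 67.7 normalized reads per kb in Control 1 to 5, and 147, 141, 162, 150 and 149 in AdCKO 1 to 5. The AdCKO libraries lay close together, and the lowest stood well above the highest Control library. Trp53 averaged 63.1 ± 9.49 for Control and 150 ± 7.63 for AdCKO mice (SD, n = 5 each). The gain was 1.25 ± 0.10 on the log2 scale (SE; limma, adjusted p = 4.43e-07; exact permutation test, p = 0.0079, the smallest that 5 mice against 5 allow). The mm9 annotation also names a short pseudogene, Trp53-ps, on chromosome 17, and the sources used here do not say how reads matching both were counted.

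Cdkn1a, whose product p21 blocks cyclin-dependent kinases, had the largest change of the 9 genes. It stood at 146, 104, 89.4, 134 and 117 normalized reads per kb in Control 1 to 5 and at 374, 418, 382, 425 and 336 in AdCKO 1 to 5. Every AdCKO library was more than 2 times the highest Control library. The means were 118 ± 22.8 and 387 ± 36.2 (SD, n = 5 each), or a gain of 1.72 ± 0.12 on the log2 scale (SE; limma, adjusted p = 2.31e-07). By its fold change Cdkn1a ranked 502 from the top of the 11244 genes tested, and Trp53 ranked 911.

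Bax encodes the pore former. Its value was 74.7, 120, 104, 125 and 94.4 normalized reads per kb in Control 1 to 5 and 227, 196, 179, 215 and 180 in AdCKO 1 to 5. Control 1 was the lowest library, and no AdCKO library reached down to the Control range. The means were 104 ± 20.3 and 200 ± 21.3 (SD, n = 5 each), or a gain of 0.95 ± 0.13 on the log2 scale (SE; limma, adjusted p = 4.16e-05).

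Of the survival genes, Bcl2 was called higher and Bcl2l1 was not called. Bcl2 was low, at 5.29, 5.17, 5.27, 5.13 and 4.12 normalized reads per kb in Control 1 to 5, and it stood at 11.9, 10.95, 8.05, 11.7 and 9.37 in AdCKO 1 to 5. AdCKO 3 and 5, which held little muscle marker RNA, were the lowest of their group and still above all Control libraries. Bcl2 rose by 0.92 ± 0.13 on the log2 scale (SE; limma, adjusted p = 5.57e-05), on means of 5.00 and 10.4. The size depended on the setting, at 0.44 with 10 added before the logarithm, 0.53 with quantile normalization and 1.34 with the same total in every library, with the call kept in each. An antisense gene, D630008O14Rik, overlaps 558 exon bases of Bcl2, and reads of the 2 cannot be told apart without strand information.

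Bcl2l1, which encodes BCL-XL, was the survival gene of the 9 with the higher level. It measured 88.7, 96.4, 83.0, 88.2 and 91.2 normalized reads per kb in Control 1 to 5 and 77.4, 75.3, 52.6, 83.8 and 84.8 in AdCKO 1 to 5. AdCKO 3 was by far the lowest, and the groups overlapped. The log2 fold change of -0.27 (SE 0.12) did not pass the threshold (limma adjusted p = 0.055; exact permutation test, unadjusted p = 0.024), and it turned to 0.20 when every library was scaled to the same total.

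Of the 3 BH3-only genes, Bcl2l11 and Pmaip1 were higher, the latter tested without the filter, and Bbc3 was not called. Bcl2l11, encoding BIM, stood at 8.67, 8.62, 9.35, 7.13 and 9.57 normalized reads per kb in Control 1 to 5 and at 16.6, 12.9, 12.9, 15.0 and 11.2 in AdCKO 1 to 5. The groups were apart, AdCKO 1 and 4 being the highest. Bcl2l11 rose by 0.60 ± 0.12 on the log2 scale (SE; limma, adjusted p = 0.00094). It fell short of the threshold with quantile normalization (0.21), with a muscle marker covariate (0.46) and against AdCKO 3 and 5 alone (0.43).

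Pmaip1, encoding NOXA, was the lowest of the 9 genes and under the filter in both groups. Its value was 3.03, 2.97, 4.26, 2.76 and 2.89 normalized reads per kb in Control 1 to 5 and 9.91, 7.25, 7.19, 9.40 and 5.76 in AdCKO 1 to 5. Control 3 was the highest of its group and also had the most macrophage marker RNA among the Control libraries, and all AdCKO libraries exceeded it in both. The part of macrophages in the result was not tested. Tested without the filter, it rose by 1.08 ± 0.14 on the log2 scale (SE; limma, adjusted p = 4.09e-05).

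Bbc3, encoding PUMA, a further textbook p53 target, had 52.8, 59.2, 63.0, 57.6 and 57.3 normalized reads per kb in Control 1 to 5 and 52.0, 64.1, 46.7, 51.5 and 56.0 in AdCKO 1 to 5. The highest and the lowest value of all 10 libraries were both in AdCKO. The log2 fold change came to -0.10 ± 0.09 (SE; limma, adjusted p = 0.31; exact permutation test, p = 0.23). Scaled to the same total per library it was 0.37 and called higher, below the median of 0.46 that all genes had under that scaling.

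Tnfrsf10b encodes the receptor for the death ligand TRAIL. It measured 25.1, 24.7, 25.3, 23.0 and 21.2 normalized reads per kb in Control 1 to 5 and 25.03, 26.2, 26.7, 29.6 and 30.6 in AdCKO 1 to 5. The groups overlapped through AdCKO 1. The log2 fold change of 0.20 (SE 0.08) missed the threshold (limma adjusted p = 0.0499; exact permutation test, unadjusted p = 0.024). It was -0.06 with quantile normalization and 0.67 with the same total in every library.

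**Figure D3:**
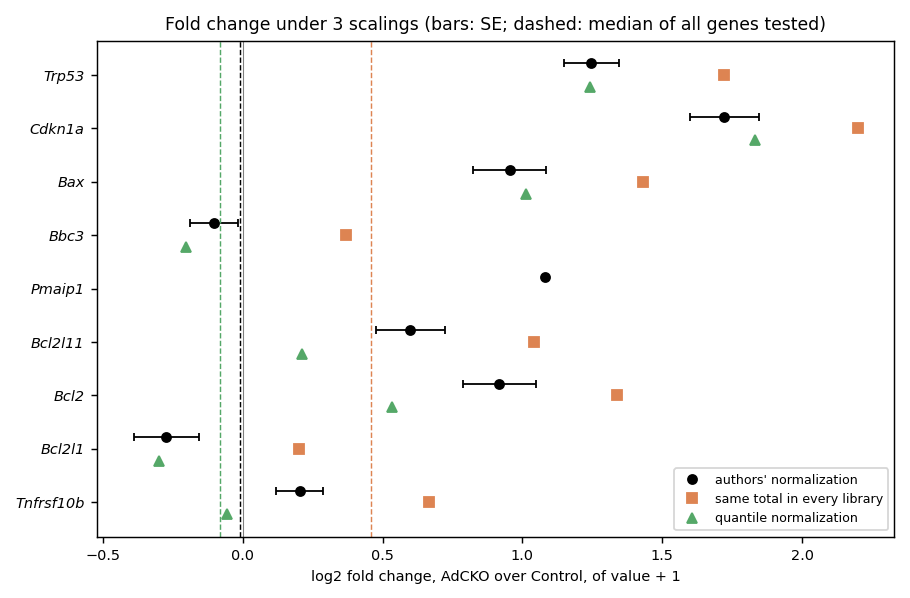
Log2 fold change of AdCKO over Control, of value + 1 (x axis), for each of the 9 genes under the authors' normalization (circles, bars are the SE), the same total in every library (squares) and quantile normalization (triangles). Dashed lines give the median of all genes tested under each scaling, and Pmaip1 is given without the filter and with no bar. Cdkn1a, Trp53, Bax, Bcl2, Bcl2l11 and Tnfrsf10b lie to the right of all 3 medians, and Bcl2l1, Bbc3 and Tnfrsf10b have values on both sides of 0.

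The scalings matter because the libraries' totals differed: the normalized reads summed to between 7615403 and 8171138 in Control and between 5419800 and 5843024 in AdCKO (exact permutation test, p = 0.0079). Giving every library the same total moved the median of all log2 fold changes up by 0.47, and 86.1% of the calls were then higher in AdCKO, compared with 47.7% under the authors' normalization. Of all genes tested, 60.6% were called higher and 9.77% lower under equal totals. Relative to that shift, Cdkn1a (2.20), Trp53 (1.72), Bax (1.43), Bcl2 (1.34) and Bcl2l11 (1.04) stayed above the median of all genes.

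Levels per kb were also set in order. In Control, Cdkn1a, Bax and Bcl2l1 led with means of 118, 104 and 89.5 normalized reads per kb, and neighbours in this order overlapped. Trp53 (63.1) and Bbc3 (58.0) came next and overlapped each other, followed by Tnfrsf10b (23.9), Bcl2l11 (8.67), Bcl2 (5.00) and Pmaip1 (3.18), of which only the last pair overlapped. In AdCKO, Cdkn1a (387), Bax (200) and Trp53 (150) were each apart from the next, and Trp53 stood above Bcl2l1 (74.8). Bcl2l1 overlapped Bbc3 (54.1), Bcl2l11 (13.7) overlapped Bcl2 (10.4), and Bcl2 overlapped Pmaip1 (7.90).

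A ratio of a pair of genes within a library is not changed by a common scaling of that library. Bax over Bcl2l1 set the pore former against the survival gene with the higher level among the 9, where Mcl1 is not included. Mcl1 stood higher than Bcl2l1 in both groups and rose more than Bax did. When each library was left out in turn, the log2 fold change was 1.17 to 1.23 for Mcl1 and 0.84 to 1.03 for Bax. Bax over Mcl1 was not computed, so the rise against Bcl2l1 does not hold for the survival genes as a group. Bax over Bcl2l1 was 0.843, 1.25, 1.25, 1.42 and 1.04 in Control 1 to 5. In AdCKO 1 to 5 it was 2.93, 2.61, 3.40, 2.57 and 2.13. The groups were apart, by 1.23 on the log2 scale (exact permutation test, p = 0.0079, 0.024 after adjustment over the 3 ratios). Bax over Bcl2 lay between 14.1 and 24.4 for Control and between 17.9 and 22.2 for AdCKO, a log2 difference of 0.04 (exact permutation test, p = 0.88). Since Bcl2 is low, this ratio depended on the constant added before the logarithm: the difference was -0.07 with 0.1 added and 0.46 with 10 added, and it was 0.48 with quantile normalization and -0.09 without Control 1. Cdkn1a over Trp53 was 1.27 to 2.72 in Control and 2.25 to 2.96 in AdCKO, a difference of 0.48 (exact permutation test, p = 0.10, 0.15 after adjustment).

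**Figure D4:**
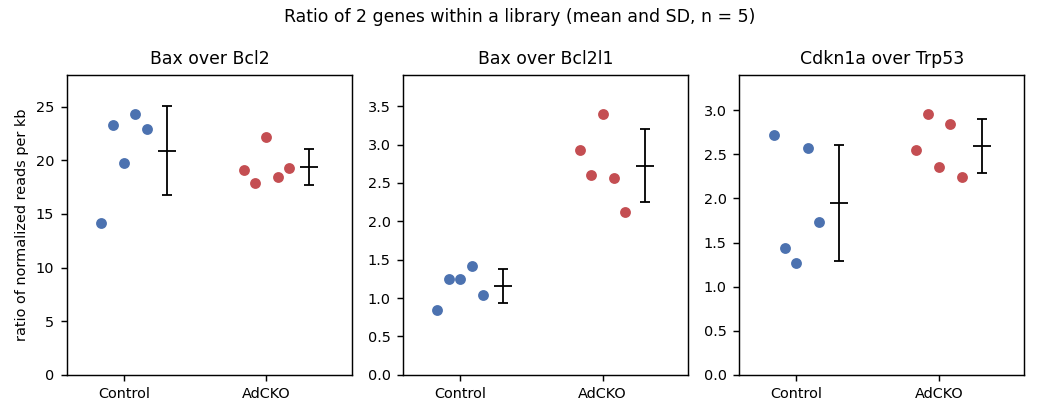
Ratio of the normalized reads per kb of a pair of genes (y axis, from 0) in each library, by group. Points are mice and bars the mean and SD (n = 5). Only Bax over Bcl2l1 separates the groups, at 0.843 to 1.42 in Control and 2.13 to 3.40 in AdCKO.

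The profiles most like those of Cdkn1a and Trp53, the 2 called genes with the largest changes on the log2(value + 1) scale, were found by the root mean square difference of centred log2 values over the 10 libraries, among 11243 genes. For Trp53 they were Fam64a (0.098), Mcm2 (0.10), a subunit of the replicative helicase, and Lyl1 (0.11), a blood cell transcription factor. For Cdkn1a they were Pigr (0.14), Maoa (0.17), which encodes a mitochondrial monoamine oxidase, and Grn (0.17), which encodes the secreted and lysosomal protein progranulin. Most of each likeness is the gap between the 2 groups that these genes share.

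In the wider BCL2 family, 8 of the 16 genes tested were higher in AdCKO, 3 were lower and 5 were not called, with a median log2 fold change of 0.37 (all genes, -0.01). Over all genes tested, 25.6% were called higher and 28.0% lower. The 16 include Bcl2, Bcl2l1, Bcl2l11, Bax and Bbc3, which were already described above. Among the remaining 11 genes tested, 5 were higher and 3 lower. Of the 16, 3 passed the filter only through AdCKO. Without the filter, 11 of all 23 listed were higher and 2 lower, beside 3726 and 3249 of all 15075 genes. The survival gene Mcl1 had the highest level among those that rose: 242, 248, 266, 290 and 257 normalized reads per kb in Control 1 to 5 and 608, 612, 584, 610 and 568 in AdCKO 1 to 5 (log2 fold change 1.19, limma adjusted p = 2.85e-08). Bid, whose product is cut by caspase-8 to link death receptors to mitochondria, rose from 15.6 ± 3.96 to 50.7 ± 7.83 (SD, n = 5 each; log2 fold change 1.66). The survival genes Bcl2a1b (1.39) and Bcl2a1d (1.48) were also higher, but they are near-identical copies of 1 gene, so that their reads are uncertain. Outside the survival genes, Bok (0.45) was higher too. Bcl2l13, a receptor for the removal of mitochondria (-0.46), the survival gene Bcl2l2 (-0.38) and the BH3-only gene Bad (-0.48) were lower. Under equal library totals 11 of the 16 were higher and none lower, beside 60.6% and 9.77% of all genes, and Bcl2l13, Bcl2l2 and Bad stood at 0.02, 0.10 and 0.0033. The calls of Bcl2l2, Bok and Bad were also lost against AdCKO 3 and 5 alone and with the muscle marker covariate, that of Bok with quantile normalization (0.11), and that of Bad with quantile normalization, a replicate block, no filter or 10 added before the logarithm, and when any library but Control 1 was left out (log2 fold change -0.61 to -0.37).

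Among the caspases and the proteins that start or hold them, 8 of 22 genes were higher, 5 were lower and 9 were not called. Of all genes tested, 25.6% were called higher and 28.0% lower. The median log2 fold change of the list was 0.04. The inflammatory caspase genes Casp1 (2.32) and Casp4 (2.22) had the largest increases: Casp1 averaged 14.8 ± 3.27 normalized reads per kb for Control and 77.2 ± 10.8 for AdCKO mice (SD, n = 5 each; limma, adjusted p = 5.96e-08). Casp12 (1.08), Casp8, the initiator of the death receptor route (0.71), Casp6 (0.37), the apoptosome gene Apaf1 (1.01) and the caspase inhibitor family genes Birc3 (0.63) and Birc5 (1.33) were higher too. Casp4 and Apaf1 passed the filter only through AdCKO, and the calls of Casp12, Birc3 and Diablo were lost against AdCKO 3 and 5 alone. The 5 that were lower all encode proteins held inside mitochondria: Aifm1 (-1.11), Endog (-0.91), cytochrome c gene Cycs (-0.61), Htra2 (-0.47) and Diablo (-0.29). Cycs was at 1307, 1265, 1285, 1416 and 1497 normalized reads per kb in Control 1 to 5 and at 827, 874, 1071, 716 and 963 in AdCKO 1 to 5, without overlap. Under equal library totals 14 of the 22 were called higher and 2 lower, beside 60.6% and 9.77% of all genes, and Htra2, Diablo and Cycs were no longer called. With quantile normalization Cycs (-0.29) and Diablo (-0.12) were not called either.

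In death receptor signalling, 6 of 14 genes were higher and 1 was lower, beside 25.6% and 28.0% of all genes tested. The median was 0.25. The calls of Ripk1 and Traf2 were lost with quantile normalization, with a muscle marker covariate and against AdCKO 3 and 5 alone. In each of those settings 4 genes were higher. Ripk1 also lost its call in 5 of the fits that left out 1 library. Tnfrsf12a, the receptor for TWEAK, rose most (2.41, with means of 60.6 ± 4.47 and 328 ± 43.5, SD, n = 5 each), and Mlkl (1.29) and Ripk3 (1.03), which carry out necroptosis, and the TNF receptor gene Tnfrsf1a (0.48) were higher. Fas was lower (-0.40), a call lost without Control 1, Control 3, AdCKO 2, AdCKO 3 or AdCKO 5 (log2 fold change -0.46 to -0.35 when each library was left out in turn). Under equal library totals 12 of the 14 were called higher and none lower, beside 60.6% and 9.77% of all genes.

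Among p53 and its regulators, 2 of 10 genes were higher, Trp53 and the p53 ubiquitin ligase gene Mdm2, itself a p53 target, and none was lower (limma; 0 at an unadjusted p under 0.05, and 1 gene, Prkdc, without the filter). Of all genes tested, 25.6% were called higher and 28.0% lower. The median of the list was 0.03. Mdm2 measured 138, 113, 114, 123 and 114 normalized reads per kb in Control 1 to 5 and 183, 202, 211, 179 and 179 in AdCKO 1 to 5 (0.66 on the log2 scale; limma, adjusted p = 1.08e-05). Of 27 p53 targets tested, 10 were higher and 5 lower, beside 25.6% and 28.0% of all genes. The other 12 were not called, and the median was 0.28. The list includes Cdkn1a, Trp53, Bax, Bbc3 and Tnfrsf10b, which were already described above. Among the remaining 22 targets tested, 7 were higher and 5 lower. The called targets moved both ways: Gadd45a, a growth arrest gene (2.95), and the kinase gene Plk2 (1.07) rose, while the ribonucleotide reductase gene Rrm2b (-0.67), Ei24 (-0.53) and Phlda3 (-0.81) were lower. Phlda3 missed the threshold against AdCKO 3 and 5 alone and with quantile normalization (-0.35). Under equal library totals all 10 regulators tested and 21 of the 27 targets were called higher and none lower, beside 60.6% and 9.77% of all genes.

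Of 5 CDK inhibitor genes tested, Cdkn1a and Cdkn2b (0.86) were higher and Cdkn2c (-0.44) was lower, with a median of 0.11. Of all genes tested, 25.6% were called higher and 28.0% lower. Cdkn2c kept its call only without Control 4 or without AdCKO 2 among the fits that left out 1 library. Genes of proliferating cells were higher beside the inhibitors. Without the filter all 14 listed were, beside 24.7% of all 15075 genes, with a median of 1.13. Of the 10 that passed the filter, 8 did so only through AdCKO. Ccna2 (1.59), Cdk1 (1.43), Top2a (1.98) and Birc5 (1.33) had the smallest p among them. Cdk1 fell under the filter without AdCKO 3 or without AdCKO 4.

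CHOP itself, Ddit3, stood at 219, 207, 220, 229 and 222 normalized reads per kb in Control 1 to 5 and at 1214, 1283, 1743, 1289 and 1710 in AdCKO 1 to 5 (log2 fold change 2.70, limma adjusted p = 3.13e-09). Its 2 highest libraries were AdCKO 3 and 5, those with little muscle marker RNA. They were the 2 lowest of their group for Pmaip1, Bcl2, Bcl2l11 and Bax, whereas Trp53 was highest in AdCKO 3 and Tnfrsf10b in AdCKO 5. Ddit3 shares 68 exon bases with Mars on the other strand, which was lower in AdCKO (-0.89). All 7 genes of the CHOP list, which includes Ddit3, were higher, beside 25.6% of all genes tested, with a median of 2.70. Among them were Ero1l (2.74), Atf3 (4.21), Trib3 (3.34) and Ppp1r15a (2.47). The list was chosen with earlier results of these data known. The authors had already reported higher Ero1l and other CHOP targets in these libraries, so the count is not independent of that report. Of the 3 genes among the 9 that background ties to CHOP, Bcl2l11 was higher, the direction of its tie. Its call was lost with quantile normalization, with the muscle marker covariate and against AdCKO 3 and 5 alone. Bcl2 was higher too, opposite to its tie to lower levels, and Tnfrsf10b did not pass the test.

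**Figure D5:**
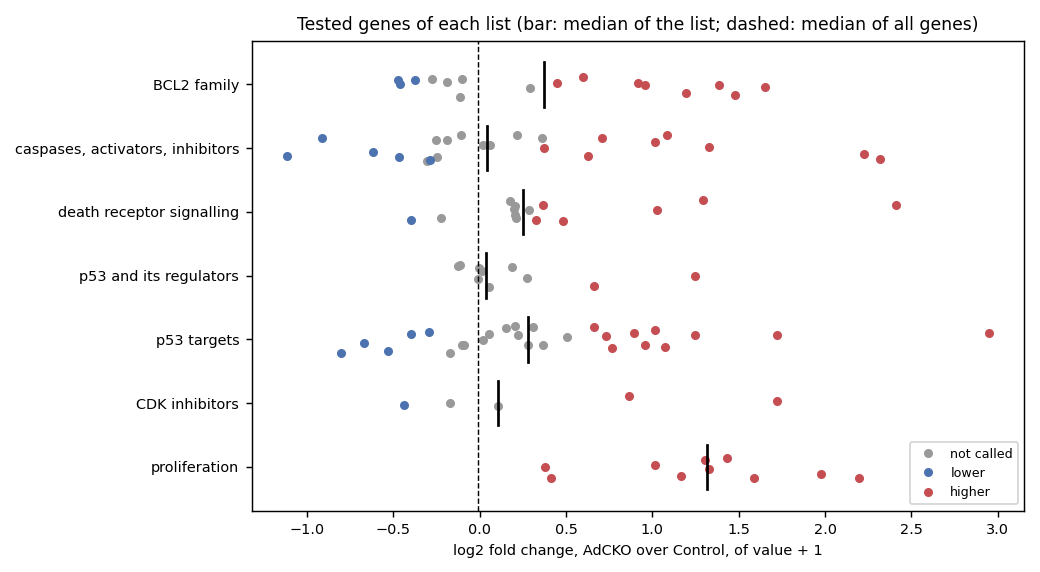
Log2 fold change of AdCKO over Control, of value + 1 (x axis), of each tested gene of 7 lists (y axis). Points are genes, coloured by call, black bars give each list's median, and the dashed line is the median of all genes (-0.01). The BCL2 family, the caspases and the p53 targets hold called genes on both sides, and the proliferation list holds none that was lower. Of the 10 proliferation genes drawn, 8 passed the filter only through AdCKO.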

How the data were processed

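The iBAT transcriptomes of 5 Control and 5 AdCKO mice were compared, and groups came from the sample labels. The authors enriched polyadenylated RNA, used STAR to map reads to mm9 and iRNA-seq to count those on the exons of 1 RefSeq transcript per gene, and normalized the result with DESeq2 (tools also named in the submitters' processing notes; versions are not given in the sources used here). Each deposited value is thus a signal (normalized exon reads divided by length in kb, with low values moderated by a step not named in the sources used here) and no count. Low values did not fall on whole reads (at best 22.7% to 24.0% lay within 0.1 of a whole number, against 20.0% by chance), so no count test was run and sequencing depth is unknown. The deposited table also holds the authors' group means, fold changes and adjusted p-values, which were not used.

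A pseudocount of 1 was added before log2. Genes with a mean of at least 10 in Control or AdCKO were tested with limma 3.58.1 in R 4.3.3 (lmFit, eBayes with trend), adjusted over all 11244 genes, at a threshold of 0.01. This test was also run on simulated data in which few genes changed, equally in both directions. In the present data many genes were called and library totals differed between the groups. The simulation therefore cannot vouch for calls that depend on the scaling. Exact two-sided permutation tests used scipy 1.17.1. Sequences and annotation came from the genome and GENCODE annotation of the mm9 build. The 9 genes and the lists were chosen with earlier results of these data known. Named genes were the 9, Crls1, Ddit3, up to 4 genes per list and direction with the smallest p, every called gene of the BCL2 family and caspase lists, the nearest profiles and overlapping genes. Prkdc was added after its values were seen. Some listed genes are not reported here by name. Nothing in the labels says how the 5 mice of a group relate beyond being separate samples.

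Alternatives were pseudocounts of 0.1 and 10, no filter, an overall mean filter of 1, equal totals, quantile normalization, limma without trend, a robust trend, array quality weights, a replicate block, a muscle marker covariate, each library left out, and an adjusted p under 0.05. The comparison of AdCKO 3 and 5 with Control was added after seeing the data. Figures were drawn with matplotlib 3.10.9.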

Additional observations from a re-analysis of the deposited data

Results flagged for a closer look

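In 18 groups of 5 values (9 genes in Control and in AdCKO), 2 held a library far from the other 4, by a gap relative to the group's range above the critical value of 0.71; chance flags about 1 in 20 groups. Bcl2 in Control 5 was the lowest of its group, at 4.12 normalized reads per kb. Pmaip1 in Control 3 was the highest of its group, at 4.26 normalized reads per kb, and Control 3 also had the highest summed macrophage markers of the Control libraries (1259).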

How the results depend on the processing

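Cdkn1a, Trp53 and Bax kept their direction and their call under each alternative run, with log2 fold changes over the settings that used all libraries of 1.62 to 2.20, 1.14 to 1.72 and 0.84 to 1.43. When single libraries were left out they ranged from 1.63 to 1.80, 1.18 to 1.30 and 0.84 to 1.03. Bcl2 ranged from 0.44 with a pseudocount of 10 to 1.34 with equal totals (0.53 with quantile normalization), and from 0.86 to 1.00 when single libraries were left out, and kept its call where it was tested.

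Results that moved did so mostly with the same total in every library. Bcl2l1 turned to 0.20 and Bbc3 to 0.37, Tnfrsf10b reached 0.67, and the counts called higher became 14 for caspases, 12 for death receptor signalling, 10 for p53 regulators and 21 for p53 targets, while those called lower became 2 for caspases and 0 for the BCL2 family, death receptor signalling, p53 targets and CDK inhibitors. Quantile normalization gave Bcl2l11 0.21, Tnfrsf10b -0.056, Bax over Bcl2 0.48, Cdkn1a over Trp53 0.59 and 0 CDK inhibitors lower. The muscle marker covariate gave Bcl2l11 0.46 and 1 BCL2 family gene lower. AdCKO 3 and 5 alone gave Bcl2l11 0.43, 3 of the 9 genes higher, and 5 higher and 1 lower in the BCL2 family. Pmaip1 was called at 1.08 without a filter or with an overall mean filter of 1, when 1 p53 regulator was lower, and no CDK inhibitor was lower without a filter, without the trend or with array weights. Tnfrsf10b (0.20) passed at an adjusted p under 0.05. Bax over Bcl2 was -0.072 with a pseudocount of 0.1 and 0.46 with 10, and -0.092 without Control 1 and -0.0049 without AdCKO 3 (-0.092 to 0.10 over all such fits). The cause of these moves was not tested. Leaving out each library gave 0 to 1 lower for death receptor signalling, p53 regulators and CDK inhibitors, and 3 to 5 for p53 targets.

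Same-numbered libraries showed no clear shared deviation from their group means, with correlations from -0.27 to 0.10. No Control library matched the AdCKO library of its own number best. This cannot show whether mice with the same number were related or handled together. With the replicate block 5 of the 9 genes were called higher, and over all genes 2592 were higher and 2838 lower, compared with 2879 and 3152. Since depth is unknown, no counting limit can be set for the low genes Bcl2, Bcl2l11 and Pmaip1.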
